A study of Mus musculus with 10 samples.

Results

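Cytosolic DNA sensing was followed through 8 genes in 10 subcutaneous mouse tumours: Mb21d1 (also named Cgas), Tmem173 (also named Sting1), Tbk1, Irf3, Trex1, Aim2, Ifi204 and Samhd1. They were chosen by symbol from the 55020 lines of the deposited table, and each of the 8 symbols had 1 line. The tumours were grown for 4 weeks from Hepa1-6 cells, a mouse hepatoma line, under the skin of C57/BL6 mice. Of these, 5 came from mice given vehicle (replicates 1, 2, 3, 5 and 6) and 5 from mice given GSK343 (replicates 1 to 5), a small-molecule inhibitor of EZH2, the methyltransferase of Polycomb repressive complex 2 that places methyl groups on lysine 27 of histone H3. The vehicle group was assigned by elimination, since the titles of its tumours carry only the letter C and a number. The labels' treatment text also names 2 antibodies, a control and one directed at asialo-GM1 that is used to remove natural killer cells, but no label ties either to a tumour, so which tumours had which cannot be told. Neither dose, sex nor age is given in the labels.

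DNA in the cytosol is read as a sign of infection or of damage to the nucleus. The enzyme cGAS, product of Mb21d1, binds it and makes the cyclic dinucleotide cGAMP, which binds STING, product of Tmem173, on the endoplasmic reticulum. STING then recruits the kinase TBK1, which phosphorylates the transcription factor IRF3, and IRF3 induces type I interferon. AIM2 and IFI204 belong to the PYHIN family of DNA-binding proteins, of which AIM2 assembles an inflammasome. TREX1, a DNA exonuclease, and SAMHD1, a dNTP hydrolase, limit the DNA that these sensors can reach. In tumours the pathway is studied mostly for the interferon and chemokines that it can elicit from tumour and host cells.

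Values are FPKM, fragment counts scaled by transcript length and by library size, so levels can be set side by side between genes. Poly-A RNA was sequenced, and the FPKM of a tumour summed to between 574547 and 623397 over all lines, with 13985 to 14714 lines at 1 FPKM or more. Depth in reads is not given. Mitochondrial transcripts made up 7.17% and 7.11% of the sum in GSK343 replicates 3 and 5 and between 2.63% and 5.05% in the other 8 tumours. Of 12 hepatocyte and hepatoma markers none was listed at 0 in any tumour, but their levels differed widely. Alb, the liver's main secreted protein, lay between 2380 and 3658 FPKM and Afp, an oncofetal liver protein, between 1465 and 2424 FPKM. At the low end, Serpina1a went down to 0.287 FPKM and Ahsg to 1.22 FPKM, both in GSK343 tumours.

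None of the 8 genes passed the test across all genes. The groups were compared with limma on log2(FPKM + 1), a scale that understates the change of weakly expressed genes, over those 14496 lines whose mean reached 1 FPKM. A line was called when its two-sided p, adjusted by the Benjamini-Hochberg method, was under 0.05. Mb21d1 lay below that filter, so 7 of the 8 genes were tested and 0 were called. In the same test 0.0828% of all lines were called, 0.069% higher and 0.0138% lower in GSK343 tumours. At an unadjusted p under 0.05 there were 2 of the 7, Ifi204 and Samhd1, both with higher values in GSK343 tumours, where 17.6% of all lines had such a p, 10.7% higher and 6.86% lower. The 7 differences had a median of 0.19, and 5 were above 0, beside a median of -0.01 and 47.6% above 0 over all lines. Without GSK343 replicates 3 and 5, the tumours of highest mitochondrial share, Ifi204 alone had an unadjusted p under 0.05 (difference 0.55, 95% interval 0.15 to 0.95), and Samhd1 stood at 0.56 (-0.02 to 1.14). In bulk tumours, more cells of a type and more RNA per cell cannot be told apart.

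The annotated promoters of Samhd1 and Aim2 are shown because the first had the higher mean in GSK343 tumours and the second nearly equal means in the 2 groups. Each window runs from 250 bases before to 50 bases after the annotated start and was read from the RefSeq promoter table for GRCm38.p6, 5′ to 3′ on the gene's strand. The Samhd1 window is chr2:157135047-157135346 on the minus strand and the Aim2 window chr1:173420354-173420653 on the plus strand. The deposited line of Aim2 starts upstream of that window, at 173350879, so the window is not at the start of the measured line. Capitals mark a match to the gamma-activated site TTCNNNGAA, a motif bound by STAT dimers.
Samhd1: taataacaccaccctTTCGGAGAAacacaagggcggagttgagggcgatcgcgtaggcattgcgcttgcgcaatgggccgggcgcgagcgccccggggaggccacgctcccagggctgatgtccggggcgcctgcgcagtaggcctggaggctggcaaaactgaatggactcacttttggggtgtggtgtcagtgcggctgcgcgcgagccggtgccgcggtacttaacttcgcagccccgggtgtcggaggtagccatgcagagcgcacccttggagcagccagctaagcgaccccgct
Aim2: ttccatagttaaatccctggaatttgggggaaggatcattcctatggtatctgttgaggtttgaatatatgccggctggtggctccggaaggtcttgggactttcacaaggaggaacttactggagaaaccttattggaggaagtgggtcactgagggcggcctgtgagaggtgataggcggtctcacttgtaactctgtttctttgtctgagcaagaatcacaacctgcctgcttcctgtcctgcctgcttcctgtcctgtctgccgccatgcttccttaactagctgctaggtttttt
No window of Tmem173 or Ifi204 was searched. Windows were used for the other 6 of the 8 genes, with 2 starts for Trex1. Each was searched on both strands for TTCNNNGAA, for the core of the interferon-stimulated response element (GAAA, any 2 bases, GAAA), for its wider-spaced form (GAAA, any 3 bases, GAAA) and for an NF-kB site (GGGA, any base, TTTCC). The single match was the one in Samhd1, at position -235 from the start. Among all 32851 promoters in the RefSeq set, 8.30% held TTCNNNGAA, 3.44% the response element core, 2.75% its wider-spaced form and 0.411% the NF-kB site. A match is a run of letters, not evidence of binding, and elements outside the windows were not searched. CpG dinucleotides numbered 29 in the Samhd1 window, 37 in that of Tbk1, 18 in that of Irf3, 16 in that of Mb21d1, 7 and 5 in those of Trex1 and 5 in that of Aim2, against a median of 7 over all promoters. Tbk1, with the most CpG, had the lower mean in GSK343 tumours, and Samhd1, with the next most, the higher one.

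The sensor at the head of the pathway was barely detected. Mb21d1 (ENSMUSG00000032344.17, mm10 chromosome 9, 78430526 to 78443237) measured 0.229, 0.612, 0.625, 0.323 and 0.397 FPKM in vehicle replicates 1, 2, 3, 5 and 6, and 0.811, 0.616, 1.003, 0.540 and 0.809 FPKM in GSK343 replicates 1 to 5. The means were 0.437 ± 0.176 and 0.756 ± 0.182 FPKM (SD, n = 5 per group). Of the GSK343 tumours, 3 lay above every vehicle tumour, while replicates 2 and 4 lay inside the vehicle range. When the filter on low values was dropped, the difference was 0.29 on the log2(FPKM + 1) scale (95% interval 0.06 to 0.52, unadjusted p = 0.0174, limma adjusted p = 0.348). An annotated pseudogene, Gm8093, overlaps an exon of Mb21d1 on the opposite strand. Since no strand setting is given, reads from the overlap cannot be told apart. Of the 50-base words in the annotated transcripts of Mb21d1, 3.67% also occur in transcripts of Gm8093.

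Tmem173, the receptor of cGAMP, was abundant in all 10 tumours. Its line (ENSMUSG00000024349.9, mm10 chromosome 18, 35733678 to 35740554) read 29.0, 43.5, 42.3, 34.9 and 34.2 FPKM in the vehicle tumours and 44.7, 41.0, 41.8, 37.8 and 43.5 FPKM in the GSK343 tumours. Vehicle replicates 2 and 3 lay inside the narrow GSK343 range and the other 3 vehicle tumours lay below it. The means of 36.8 ± 6.05 and 41.8 ± 2.63 FPKM (SD, n = 5 per group) differed by 0.19 on the log2(FPKM + 1) scale (SE 0.108, 95% interval -0.05 to 0.43, limma adjusted p = 0.383). STING transcript therefore exceeded cGAS transcript per length of RNA in every tumour, whichever the treatment.

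The kinase and the transcription factor downstream of STING did not pass either. Tbk1 (ENSMUSG00000020115.3, mm10 chromosome 10, 121546455 to 121586787) measured 28.6, 31.7, 33.6, 28.8 and 28.6 FPKM in vehicle tumours and 28.7, 21.3, 29.9, 33.1 and 22.5 FPKM in GSK343 tumours. GSK343 replicates 2 and 5 lay below all other tumours and the remaining 3 lay inside the vehicle range. Its means were 30.3 ± 2.29 and 27.1 ± 4.999 FPKM (SD, n = 5 per group), a difference of -0.17 (95% interval -0.43 to 0.10, limma adjusted p = 0.481). Irf3 (ENSMUSG00000003184.15, mm10 chromosome 7, 44997648 to 45002848) measured 24.4, 31.5, 25.4, 27.8 and 18.6 FPKM in vehicle tumours and 25.5, 31.0, 31.5, 25.8 and 30.2 FPKM in GSK343 tumours. Only vehicle replicate 6 stood clearly below the rest, and the groups overlapped. The means of Irf3 were 25.6 ± 4.73 and 28.8 ± 2.91 FPKM (SD, n = 5 per group), a difference of 0.18 (95% interval -0.10 to 0.46, limma adjusted p = 0.481). Exons of Bcl2l12, a gene on the opposite strand, overlap those of Irf3. Bcl2l12 measured 10.9 ± 1.46 and 9.36 ± 1.86 FPKM (SD, n = 5 per group).

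The PYHIN genes Ifi204 and Aim2 had unlike values. Ifi204 (ENSMUSG00000073489.6, mm10 chromosome 1, 173747293 to 173766943), the mouse gene most often set beside human IFI16, measured 18.1, 27.1, 27.3, 20.1 and 17.3 FPKM in vehicle tumours and 36.1, 27.6, 52.0, 33.2 and 41.9 FPKM in GSK343 tumours. It was the single gene of the 7 tested whose groups did not overlap, and the gap was narrow, from 27.3 in vehicle replicate 3 to 27.6 in GSK343 replicate 2. Among all lines tested the groups of 2.62% did not overlap, 1.42% with GSK343 tumours higher and 1.2% with GSK343 tumours lower. The means of 22.0 ± 4.89 and 38.2 ± 9.30 FPKM (SD, n = 5 per group) differed by 0.76 (SE 0.182, 95% interval 0.36 to 1.17, unadjusted p = 0.00166, limma adjusted p = 0.189). Aim2 (ENSMUSG00000037860.15, mm10 chromosome 1, 173350879 to 173466040) measured 37.4, 36.5, 38.3, 39.0 and 36.9 FPKM in vehicle tumours and 38.2, 42.9, 37.4, 38.1 and 25.2 FPKM in GSK343 tumours. The vehicle values lay close together, between 36.5 and 39.0 FPKM, 3 GSK343 tumours lay among them, replicate 2 lay above and replicate 5 well below. Its means were 37.6 ± 1.02 and 36.4 ± 6.60 FPKM (SD, n = 5 per group), a difference of -0.07 (95% interval -0.34 to 0.20, limma adjusted p = 0.794). The sign rested on GSK343 replicate 5: without it the difference was 0.05.

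Genes that remove DNA or its precursors included the most abundant of the 8. Samhd1 (ENSMUSG00000027639.16, mm10 chromosome 2, 157097533 to 157135265) measured 35.3, 79.2, 58.2, 44.6 and 38.9 FPKM in vehicle tumours and 84.2, 59.2, 103.7, 77.1 and 97.6 FPKM in GSK343 tumours. All but vehicle replicate 2 among the controls lay below every GSK343 tumour. The means of 51.3 ± 17.9 and 84.4 ± 17.6 FPKM (SD, n = 5 per group) differed by 0.74 (SE 0.223, 95% interval 0.25 to 1.24, unadjusted p = 0.00694, limma adjusted p = 0.192). Trex1 (ENSMUSG00000049734.9, mm10 chromosome 9, 109057933 to 109059734) measured 12.7, 15.9, 16.1, 9.90 and 11.3 FPKM in vehicle tumours and 9.08, 13.6, 22.7, 17.1 and 17.7 FPKM in GSK343 tumours. GSK343 tumours held both the lowest value of Trex1, in replicate 1, and its 3 highest. The means of 13.2 ± 2.75 and 16.0 ± 5.06 FPKM (SD, n = 5 per group) differed by 0.23 (95% interval -0.25 to 0.71, limma adjusted p = 0.596), and by -0.0082 without GSK343 replicates 3 and 5.

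Not every line can be read as one gene. Of the 50-base words in the annotated transcripts of Trex1, 95.8% also occur in transcripts of Atrip, which shares its strand and exons, so the value of Trex1 depends on how reads were divided between the pair. Atrip measured 4.59 ± 1.40 and 4.78 ± 1.15 FPKM (SD, n = 5 per group). Ifi204 shares 20.0% of its words with other genes, most of them with Ifi211, listed in the deposited table as Mnda, and its value is uncertain to that extent. The shares were 4.68% for Mb21d1, 2.35% for Tbk1, 1.76% for Samhd1, 1.10% for Irf3, 0.742% for Aim2 and 0% for Tmem173.

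**Figure D1:**
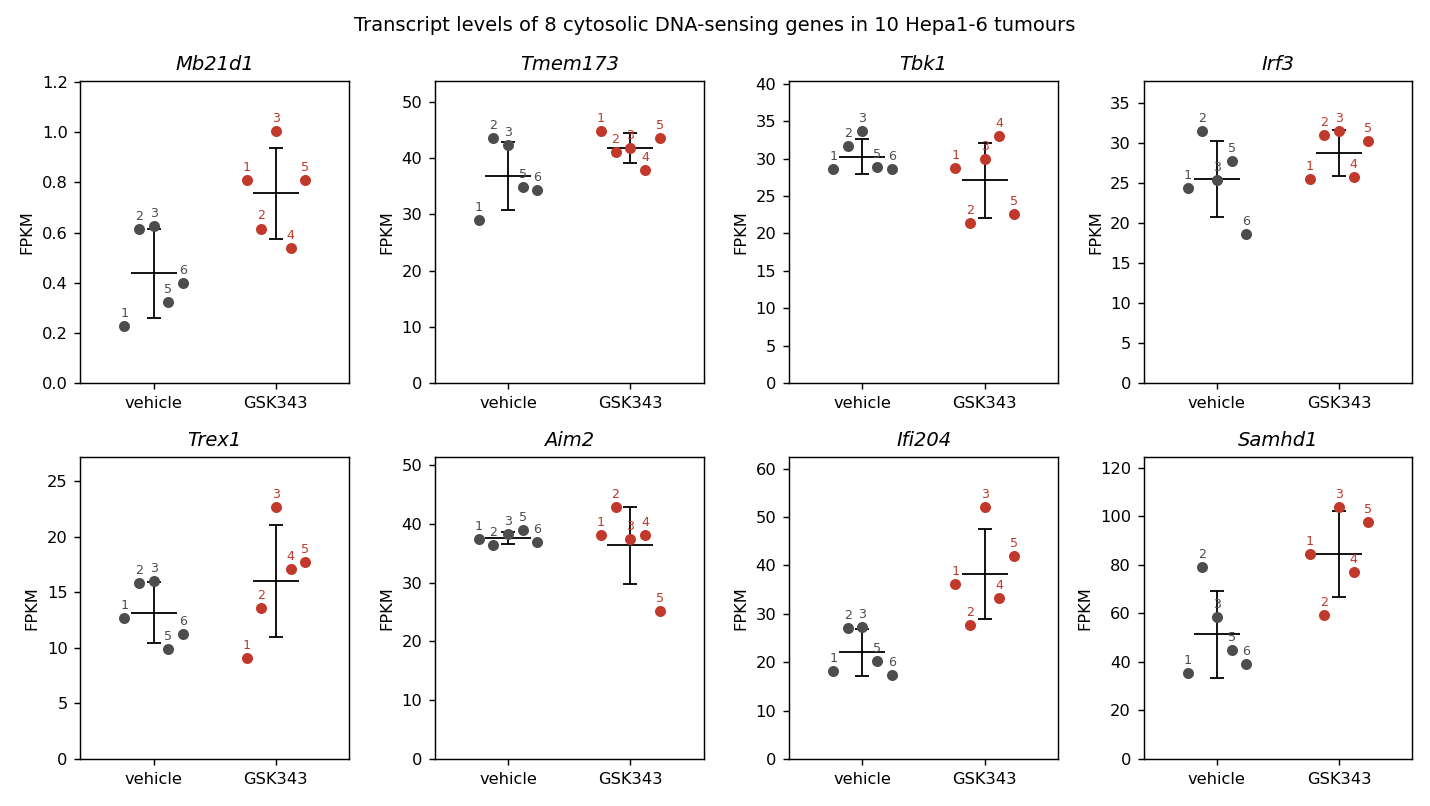
FPKM of each of the 8 genes (vertical axes, each from 0) in vehicle tumours (grey) and GSK343 tumours (red); points are single tumours with their replicate numbers, and bars are the mean and SD of 5 tumours. Ifi204 is the single panel among the tested genes with no overlap, with vehicle tumours up to 27.3 and GSK343 tumours from 27.6, and Mb21d1 stays at or below 1.003.

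Ordered by mean level in vehicle tumours, Samhd1 came first, then Aim2, Tmem173, Tbk1, Irf3, Ifi204, Trex1 and Mb21d1. Each neighbour in this order had a range that overlapped the next, apart from Ifi204 over Trex1 and Trex1 over Mb21d1. In GSK343 tumours Samhd1 stood clear of the next gene, Tmem173, and Ifi204 lay in the third place. The remaining neighbours overlapped down to Trex1, which stood clear of Mb21d1. Spread between tumours was unequal too: the coefficient of variation in vehicle tumours was 2.70% for Aim2 and 7.57% for Tbk1 but 34.9% for Samhd1 and 40.2% for Mb21d1. In GSK343 tumours it ran from 6.29% for Tmem173 to 31.6% for Trex1. A single tumour, GSK343 replicate 3, held the highest value of 5 of the 8 genes (Mb21d1, Irf3, Trex1, Ifi204 and Samhd1), and vehicle replicate 1 the lowest of 3 (Mb21d1, Tmem173 and Samhd1).

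Leukocyte markers varied together with several of these genes. The pan-leukocyte score, the mean log2(FPKM + 1) of 12 markers such as Ptprc and Coro1a, was 4.11, 5.47, 4.97, 4.28 and 4.21 in vehicle tumours and 5.49, 5.11, 5.83, 5.05 and 5.89 in GSK343 tumours. Of the 12 markers 10 had an unadjusted p under 0.05, all higher in GSK343 tumours, and 0 were called in limma. Over all lines 10.7% were higher at such a p. Without GSK343 replicates 3 and 5, the 2 tumours highest in this score, 2 of the 12 had such a p. The share of all lines in that fit was not computed. Vehicle replicates 2 and 3, highest in this score among the controls, were also the highest vehicle tumours for Mb21d1, Tmem173, Tbk1, Trex1, Ifi204 and Samhd1. Of the 14 macrophage and monocyte markers 12 were higher by the unadjusted criterion and 0 called, with a summed level of 644 to 2853 FPKM in vehicle tumours against 1488 to 3435 FPKM with GSK343, and none of the 14 was listed at 0 in any tumour. Without GSK343 replicates 3 and 5, 1 of the 14 met that criterion. The summed T cell markers lay at 114 to 234 and 171 to 315 FPKM, and 3 of 10 were higher by that criterion. The summed natural killer cell markers lay at 13.8 to 47.4 and 23.5 to 73.2 FPKM, and 2 of the 5 tested were higher. The 6 B cell markers summed to 2.05 to 5.90 FPKM in vehicle tumours and 3.70 to 7.39 FPKM with GSK343. Of these 6, 4 lay below the filter, and 1 of the 2 tested was higher by that criterion. Ms4a1, below the filter, was listed at 0 in 1 tumour and stayed below 1 FPKM in all. Among other tissues, 6 of 9 fibroblast and 7 of 9 skeletal muscle markers were higher by the unadjusted criterion. Lower by it were 4 of 12 hepatocyte markers, beside 6.86% of all lines. Without GSK343 replicates 3 and 5 the numbers of fibroblast, muscle and hepatocyte markers were 2, 2 and 0. The part of any of these cell types in the values of the 8 genes was not tested beyond the model that follows.

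When the model also held the pan-leukocyte score, the difference of Ifi204 was 0.28 (95% interval -0.03 to 0.59) and that of Samhd1 0.09 (-0.17 to 0.35). The score itself was higher in GSK343 tumours and comes from the same libraries, so the 2 terms are not independent. In that model Tmem173 stood at -0.07, Irf3 at -0.04, Trex1 at -0.12 and Aim2 at 0.08, each with the opposite sign to the model without it, and Tbk1 at -0.23. None of the 7 had an unadjusted p under 0.05 there, and the limma adjusted p was 0.999 for each. GSK343 replicate 5, with the highest score, had the lowest Aim2 and the second lowest Tbk1.

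**Figure D2:**
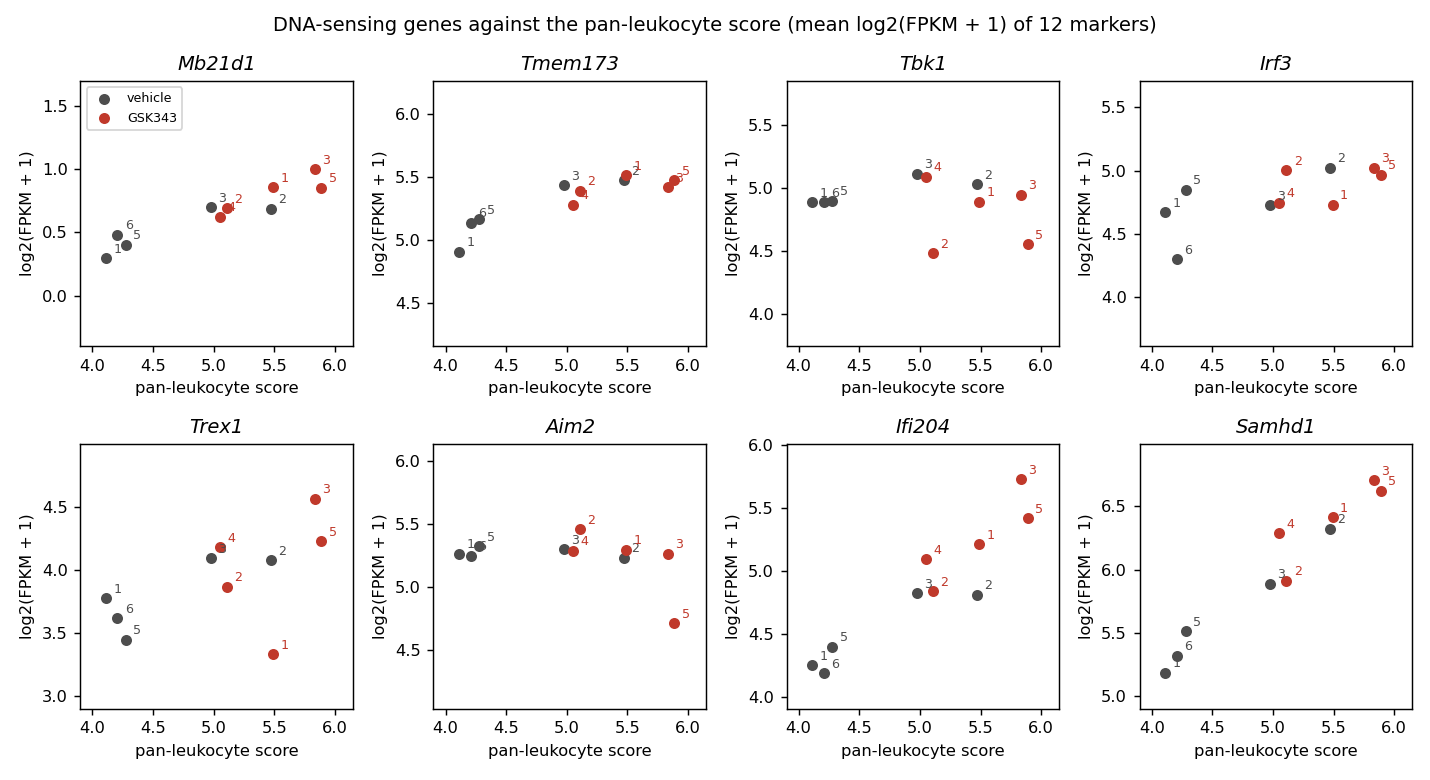
Log2(FPKM + 1) of each gene (vertical axes, all spanning the same width) against the pan-leukocyte score of the tumour (horizontal axis, mean log2(FPKM + 1) of 12 markers), with vehicle tumours in grey and GSK343 tumours in red, numbered by replicate. Samhd1 and Ifi204 are low in the 3 vehicle tumours with scores of 4.11 to 4.28 and high in GSK343 replicates 3 and 5, whereas Aim2 is level apart from GSK343 replicate 5.

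**Figure D3:**
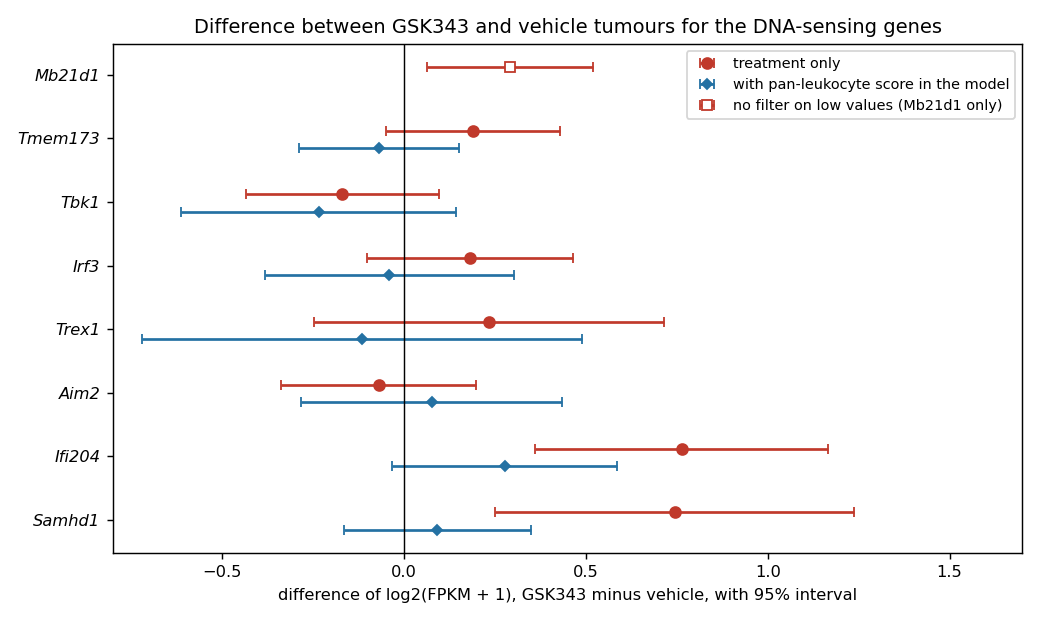
Difference of log2(FPKM + 1), GSK343 minus vehicle, with 95% intervals from limma (horizontal axis) for each gene (vertical axis), fitted with treatment alone (red circles), with the pan-leukocyte score added (blue diamonds) and, for Mb21d1, without the filter on low values (open square). The intervals of Ifi204 (0.36 to 1.17) and Samhd1 (0.25 to 1.24) lie above 0 with treatment alone and include 0 with the score added.

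Other genes of the PYHIN family, which cluster with Ifi204 on chromosome 1, varied across the tumours much as Ifi204 did, at levels that differed from gene to gene. Of such genes 8 were read here, and 7 of them were tested. Ifi202b, a further one that lay below the filter, was left out. All 7 had higher values in GSK343 tumours at an unadjusted p under 0.05, with differences of 0.53 to 0.88. At such a p 10.7% of all lines were higher, and none of the 7 was called in limma. Without GSK343 replicates 3 and 5 the number was 3. Mnda measured 24.1 ± 6.87 and 42.1 ± 11.3 FPKM (SD, n = 5 per group; limma adjusted p = 0.191) and Ifi209 3.11 ± 0.952 and 5.40 ± 1.38 FPKM (limma adjusted p = 0.191). Because the genes of this family resemble each other, reads may be shared among them and their values are not independent. Whether Aim2 differs from its relatives in the response was not tested.

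**Figure D4:**
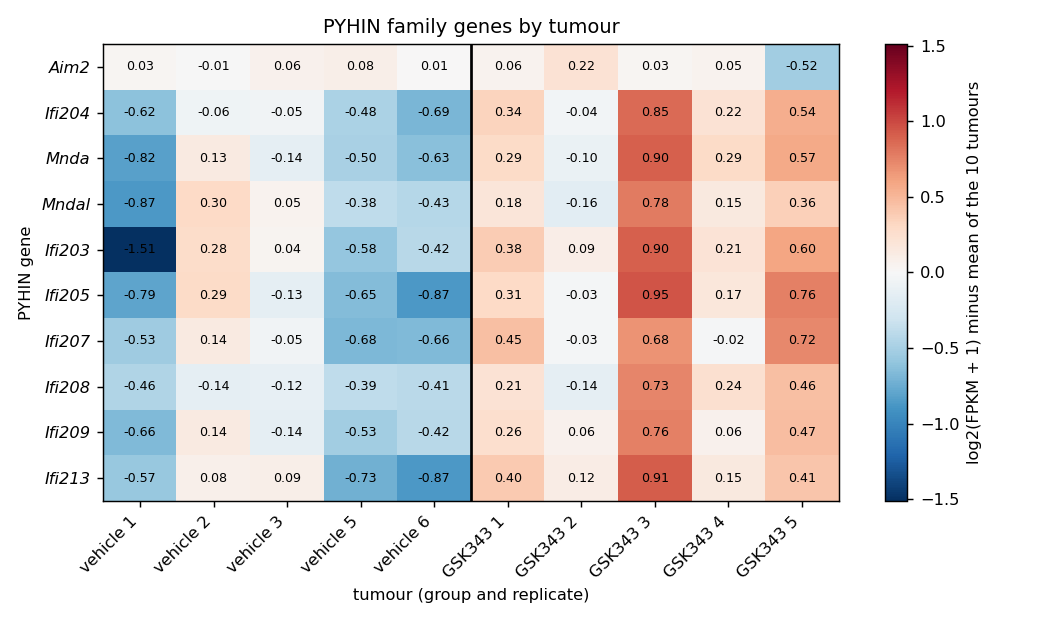
Log2(FPKM + 1) of 10 PYHIN genes (rows) in the 10 tumours (columns, vehicle left of the line and GSK343 right of it), each minus the gene's own mean over the 10 tumours; red is above and blue below that mean. Apart from Aim2, the rows are below their mean in vehicle replicates 1, 5 and 6 and above it in GSK343 replicates 1, 3 and 5, while Aim2 stays near its mean except at -0.525 in GSK343 replicate 5.

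The wider pathway was read through 7 lists with 143 genes, of which 129 were tested. In limma 0 were called, and 45 were higher and 2 lower at an unadjusted p under 0.05. Over all lines 10.7% were higher and 6.86% lower at such a p. Without GSK343 replicates 3 and 5 the 2 numbers came to 18 in all. For that fit and the fit with the leukocyte score, the share of all lines was not computed. Falls in these counts are therefore not results about the lists. Among the other DNA sensors and PYHIN genes, 9 of 22 tested genes were higher by the unadjusted criterion and 0 lower (median difference 0.06), and 7 of these 9 were the PYHIN genes above. That number was 4 without GSK343 replicates 3 and 5. Zbp1, a sensor of Z-form nucleic acid, measured 65.5 ± 17.7 and 111 ± 25.5 FPKM (SD, n = 5 per group; limma adjusted p = 0.191). The inflammasome genes had 6 of 9 higher, 0 lower and a median of 0.50, with 1 of 9 without GSK343 replicates 3 and 5. Adding the leukocyte score to the model gave a median of 0.026 and 0 of 9 had an unadjusted p under 0.05. Il1b, the cytokine that the inflammasome matures, measured 17.7 ± 7.07 and 31.5 ± 8.11 FPKM (limma adjusted p = 0.192). Gsdmd, the pore-forming gasdermin, measured 84.8 ± 11.3 and 105.5 ± 10.04 FPKM (limma adjusted p = 0.201), and Nlrp3, another sensor, 0.924 ± 0.410 and 1.69 ± 0.372 FPKM (limma adjusted p = 0.201). Casp1, the protease, measured 29.8 ± 7.27 and 42.0 ± 6.55 FPKM (limma adjusted p = 0.203), and Pycard, the adaptor between AIM2 and caspase-1, 2.80 ± 1.26 and 4.51 ± 1.37 FPKM (limma adjusted p = 0.244).

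Kinase partners, adaptors and transcription factors had 5 of 22 higher, 0 lower and a median of 0.18, with 1 of 22 without GSK343 replicates 3 and 5. With the covariate their median was 0.013 and that number was 0. By the unadjusted criterion 10.7% of all lines were higher and 6.86% lower in the model without it. Nfkbia, the NF-kB inhibitor that NF-kB itself induces, measured 56.4 ± 10.2 and 78.2 ± 13.4 FPKM (limma adjusted p = 0.192). Irf5, a relative of IRF3 found in myeloid cells, measured 16.7 ± 5.48 and 24.7 ± 2.74 FPKM (limma adjusted p = 0.201), and Azi2, an adaptor of TBK1, 22.98 ± 4.67 and 30.4 ± 4.23 FPKM (limma adjusted p = 0.211). Ikbke, the kinase closest to TBK1, measured 17.6 ± 3.50 and 19.6 ± 2.31 FPKM (limma adjusted p = 0.534). Irf7, the interferon-induced relative of IRF3, measured 15.5 ± 2.44 and 26.7 ± 15.9 FPKM (limma adjusted p = 0.319).

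Of 10 tested genes that handle cGAMP, 2 were higher and 1 lower by the unadjusted criterion, with a median of 0.03. Of all lines, 10.7% were higher and 6.86% lower by it. Without GSK343 replicates 3 and 5, 0 of the 10 met it. Enpp1, the hydrolase that degrades cGAMP outside cells, measured 1.40 ± 0.416 and 1.41 ± 0.376 FPKM (limma adjusted p = 0.987). Slc19a1, a folate carrier that also imports cyclic dinucleotides, measured 9.81 ± 0.388 and 7.64 ± 1.38 FPKM without overlap (limma adjusted p = 0.202). Of all lines, 1.2% had such groups with GSK343 tumours lower. Smpdl3a, a phosphodiesterase, measured 7.35 ± 3.72 and 14.3 ± 4.40 FPKM (limma adjusted p = 0.199), and Abcc1, an exporter, 4.55 ± 0.552 and 5.95 ± 0.930 FPKM (limma adjusted p = 0.210). Nucleases and clearance genes had 7 of 17 higher, 0 lower and a median of 0.12, with 2 of 17 without GSK343 replicates 3 and 5 and 1 of 17 with the covariate, where the median was 3.2e-05. Dnase1l3, a secreted DNase, measured 7.25 ± 4.51 and 13.5 ± 1.15 FPKM (limma adjusted p = 0.202), Pld4, a lysosomal exonuclease, 19.3 ± 8.49 and 31.4 ± 4.25 FPKM (limma adjusted p = 0.202), and Rnaset2a, a lysosomal ribonuclease, 26.3 ± 5.80 and 33.5 ± 1.53 FPKM (limma adjusted p = 0.218). Rnaseh2b, a subunit of ribonuclease H2, measured 7.94 ± 1.33 and 8.43 ± 0.689 FPKM (limma adjusted p = 0.695), and Adar, the editor of double-stranded RNA, 8.55 ± 1.37 and 10.4 ± 1.54 FPKM (limma adjusted p = 0.310).

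Genes of STING trafficking and regulation had the median closest to that of all lines among the 7 lists, with 1 of 29 higher, 1 lower and a median of 0.02. The higher one was Trim30a, at 11.9 ± 2.90 and 17.3 ± 2.93 FPKM (limma adjusted p = 0.202), and the lower one Banf1, a chromatin protein that competes with cGAS for DNA, at 179 ± 15.5 and 159 ± 9.18 FPKM (limma adjusted p = 0.275). Rnf5, a ubiquitin ligase of STING, measured 20.5 ± 1.40 and 18.3 ± 1.26 FPKM (limma adjusted p = 0.291). Of all lines, 10.7% were higher and 6.86% lower by the unadjusted criterion.

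At the output end, 15 of 22 tested genes were higher by the unadjusted criterion, 0 lower, with a median of 0.72. The count was 9 without GSK343 replicates 3 and 5. By that criterion 10.7% of all lines were higher and 6.86% lower in the fit of all 10 tumours. Of the 22 genes, 3 had groups that did not overlap, with GSK343 tumours higher, as did 1.42% of all lines. Several receptors other than STING induce the same genes, and interferon-gamma induces some of them. Ifnb1, the interferon that IRF3 induces first, was near 0, at most 0.0896 FPKM in vehicle tumours against 0.186 FPKM with GSK343, and was not tested. Oas2, an antiviral oligoadenylate synthetase, measured 1.64 ± 0.730 and 4.46 ± 0.634 FPKM without overlap (SD, n = 5 per group; limma adjusted p = 0.0615). Ifit3, an antiviral effector, measured 5.66 ± 1.12 and 10.9 ± 3.55 FPKM without overlap (limma adjusted p = 0.189), and Isg15, a ubiquitin-like modifier, 20.1 ± 5.68 and 35.6 ± 9.60 FPKM (limma adjusted p = 0.191). The chemokines Cxcl10 and Ccl5 measured 83.4 ± 35.2 and 182 ± 47.7 FPKM (limma adjusted p = 0.191) and 104 ± 69.2 and 179 ± 88.4 FPKM (limma adjusted p = 0.322). With the pan-leukocyte covariate the median of this list was 0.23 and 2 genes had an unadjusted p under 0.05. Ezh2, the target of the drug, measured 55.2 ± 7.65 and 44.8 ± 6.60 FPKM (limma adjusted p = 0.233).

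**Figure D5:**
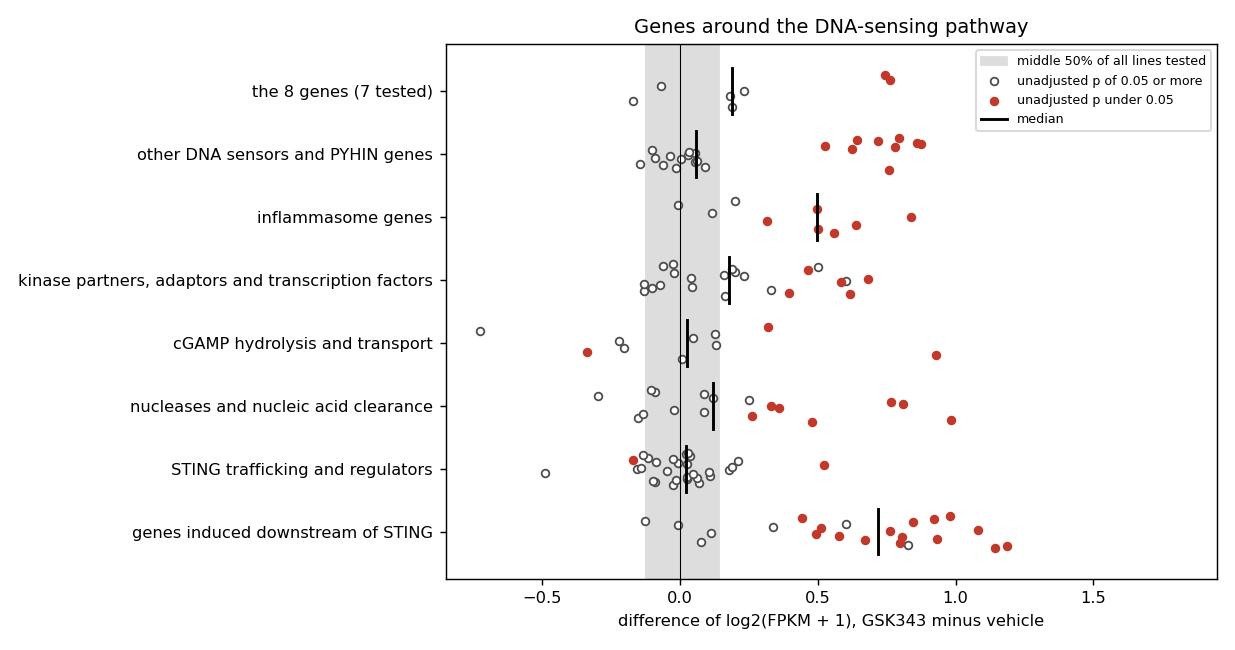
Difference of log2(FPKM + 1), GSK343 minus vehicle (horizontal axis), of each tested gene in the 8 genes and the 7 lists (vertical axis); filled points have an unadjusted p under 0.05, open points do not, vertical strokes are medians, and the grey band is the middle of all 14496 lines, from -0.12 to 0.14. The median of STING trafficking (0.02) lies in the band, and the medians of the inflammasome genes (0.50) and of the induced genes (0.72) lie to its right.

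Genes whose pattern was most like each member were sought among 8263 named protein-coding genes with a mean of at least 5 FPKM, by Pearson correlation over the 10 tumours of the deviations from the group mean. These values describe the same libraries and are the highest of many, so no p is given. Tmem173 was followed most closely by Lyn (0.98), Csf2ra (0.97) and Plbd1 (0.97), genes with high expression in myeloid cells. Ifi204 was followed by Acod1 (0.97), an enzyme of activated macrophages, Gbp4 (0.96) and Mnda (0.96). Samhd1 was followed by Sdhb (0.99), Serpina3g (0.98) and Entpd1 (0.98). The genes most like Irf3 included Atg16l2 (0.98) and Htra1 (0.92), and those most like Tbk1 were Spats2l (0.90), Flot2 (0.89) and Lmo2 (0.89). For Trex1 they were Efemp2 (0.91), Tppp3 (0.88) and Tpm2 (0.86). For Aim2 they were Tardbp (0.96), Nnt (0.96) and Plxnb1 (0.96), and the deviation of Aim2 is dominated by GSK343 replicate 5.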

How the data were processed

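Reads were handled with HISAT2 2.1.0, Trimmomatic 0.33 and StringTie 1.3.3b on mm10, per the submitters' processing notes. Their options, the annotation and any strand setting: not given in the sources used here. In the deposited table each gene has a value for each tumour, taken as FPKM from the values, since its header names no unit. Its 10 further columns have no name and no values. Loci were compared with GENCODE mouse release M21, which has the same coordinates for every member except Tmem173.

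From these values, log2(FPKM + 1) was tested with limma 3.58.1 under R 4.3.3, with the variance trended on intensity. The 14496 lines whose mean reached 1 FPKM entered, with Benjamini-Hochberg adjustment over all of them. The limma p-values set the difference between groups against the spread between tumours of a group, moderated towards the trend on intensity. No count test was run, and no interval for counting error can be given for FPKM. Plots were drawn with matplotlib 3.10.9.

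The members and the gene lists were chosen with earlier results of these data known, so no test was made over a list. Named genes are the 8 members, up to 3 genes with the smallest p of each pathway list, and 13 further pathway genes including Ezh2; some genes that the rules named are not reported here. Other settings tried were a stricter filter or none, other pseudocounts, other scalings, no intensity trend, weights per tumour, the leukocyte score as covariate, a block for the replicate number, and leaving out each tumour. The fits without GSK343 replicates 3 and 5 and on the 8 tumours with shared numbers were chosen after seeing the data.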

Additional observations from a re-analysis of the deposited data

Results flagged for a closer look

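Of 120 groups of 5 tumours examined for a value far from the other 4, 6 had one, and chance alone flags about 1 in 20 groups. None of the 6 was a value of the 8 DNA-sensing genes. Irf7 was 54.0 FPKM in GSK343 replicate 3, against 14.6 to 25.1 FPKM in the other GSK343 tumours. Ifnb1 was 0.186 FPKM in that same tumour, against 0.0281 FPKM in the next highest. Ccl5 was 225.9 FPKM in vehicle replicate 2, against 63.2 to 90.0 FPKM in the other vehicle tumours. For Ezh2, GSK343 replicate 2 read 56.3 FPKM and the other 4 tumours of that group 40.6 to 44.3 FPKM. The score of the STING trafficking and regulator list, a mean log2(FPKM + 1), was 4.33 in vehicle replicate 3, against 4.16 to 4.20 in the other vehicle tumours. The keratinocyte score was 2.56 in GSK343 replicate 5, against 0.463 to 0.972 in the others.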

How the results depend on the processing

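None of the 7 tested genes was called in limma under any of the 12 other settings or with any of the 10 tumours left out; Mb21d1, below the filter, was fitted only without the filter and was not called there. Ifi204 and Samhd1 had positive differences in all of them, from 0.28 to 0.87 and from 0.09 to 0.91, with adjusted p from 0.0582 to 0.999 and from 0.0540 to 0.999; both smallest values were without vehicle replicate 2. With the pan-leukocyte covariate the sign turned for Tmem173 (-0.068), Irf3 (-0.041), Trex1 (-0.12) and Aim2 (0.077). Without GSK343 replicates 3 and 5 it turned for Trex1 (-0.0082) and Aim2 (0.074), and with single tumours left out Aim2 ranged from -0.13 to 0.054, the latter without GSK343 replicate 5; the cause was not tested. The number of the 8 at an unadjusted p under 0.05 was 0 with the covariate, 1 without GSK343 replicates 3 and 5, and 1 with the replicate block. It was 3 with no filter and 2 to 3 with single tumours left out. Among the pathway lists the number at such a p was 4 with the covariate and 18 without GSK343 replicates 3 and 5. It was 32 with the replicate block and 39 to 52 with single tumours left out. The matching shares of all lines were not computed. Of the pathway genes 1, Oas2, was called with tumour weights, and 0 to 1 with single tumours left out, Oas2 again without vehicle replicate 2. Over all lines 12 were called. That count was 6 with no filter, 3 at a mean of at least 5 FPKM, 7 with quantile normalization, 2 with the covariate, 4 without GSK343 replicates 3 and 5, and 3 to 96 with single tumours left out, the highest without vehicle replicate 2. Same-numbered tumours did not deviate together (correlations -0.11, -0.33, 0.03 and -0.19). Differently numbered tumours ranged from -0.32 to 0.31, so these values cannot show whether the number marks a pairing. With the number as a block over 8 tumours 2 lines were called, against 5 on those 8 tumours without it. Depth in reads is unknown, so for Mb21d1 and Ifnb1 counting error cannot be separated from the spread between tumours.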
